A study of Mus musculus with 6 samples.

Results

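The genes described here are 10 genes of heart muscle that were measured in whole mouse lung: Myh6, Myl7, Myl4, Actc1, Tnnt2, Tnni3, Ryr2, Pln, Sln and Nppa. They were chosen by name as cardiomyocyte genes, with Myl7, Myl4, Sln and Nppa as the atrial ones, and all 10 were found among the 56262 genes of the count table by their symbols. Lung RNA came from 3 R/R mice and 3 WT littermates, all untreated, 8 weeks of age and on the C57BL/6 background. R/R mice are homozygous knock-ins whose RNA-binding protein RBM47 carries the K329R and K332R substitutions, made by CRISPR/Cas editing in all tissues, and WT mice carry neither substitution. Each library is a separate mouse, and paired reads of 150 bp gave between 16501092 and 18141067 counted read pairs per library, so that 3 counts correspond to 0.166 to 0.182 CPM (counts scaled to the size of each library). Gene counts do not show the substituted codons, so they do not check the genotype labels.

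In mice, a sleeve of striated heart muscle runs from the left atrium along the pulmonary veins into the lung, and its cells contract with the heartbeat. These cells use the contractile and calcium-cycling proteins of atrial cardiomyocytes: a thick filament of cardiac myosin with atrial light chains, a thin filament of cardiac actin with the troponins, and a sarcoplasmic reticulum that releases calcium through the ryanodine receptor and takes it up again through a pump held back by phospholamban and sarcolipin. Vascular and airway smooth muscle, which is far more common in the lung, uses other myosins and no troponin. In bulk RNA, fewer muscle cells in the piece of lung and less RNA per muscle cell cannot be told apart, and the libraries do not show where in the lung the transcripts came from.

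The promoters of 3 members are shown because these genes stand for both patterns found below, the widely varying Myl7 and Tnnt2 and the nearly level Actc1. The bases are those before the RefSeq start site on GRCm38.p6, read along the gene's strand, and they end at position -1 for Myl7 and Tnnt2 and at position -13 for Actc1, whose next bases lie in an annotated exon. Capitals mark a CArG box (the site known for serum response factor, CC and GG around a run of A and T) or the letters CATTCC, the core of the muscle M-CAT element. The windows are chr11:5898783-5898892 (minus strand) for Myl7, chr1:135836224-135836333 (plus strand) for Tnnt2 and chr2:114052888-114052985 (minus strand) for Actc1.
Myl7: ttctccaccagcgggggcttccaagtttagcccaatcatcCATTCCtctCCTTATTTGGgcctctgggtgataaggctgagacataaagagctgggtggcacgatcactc
Tnnt2: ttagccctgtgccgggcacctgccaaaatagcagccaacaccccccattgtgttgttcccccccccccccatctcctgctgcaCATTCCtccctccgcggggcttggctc
Actc1: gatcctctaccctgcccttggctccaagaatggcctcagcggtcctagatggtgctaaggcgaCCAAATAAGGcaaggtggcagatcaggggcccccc

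Promoter windows of 300 bases were on hand for 9 of the 10 members. Searched on both strands, a CArG box occurred in 2 of the 9 (Myl7, starting at position -61, and Actc1, at -47), and in 1.63% of all 32851 windows. CATTCC occurred in 3 of the 9 (Myl7, Tnnt2 and Myh6) and in 14.7% of all windows, GATAA, the core bound by GATA factors, in 5 of the 9 and in 25.4%, and TATAAA in 4 of the 9 and in 13.6%. A MEF2 site occurred in 0 of the 9 and in 0.557% of all windows. The Myl7 and Actc1 windows thus share a CArG box, and a match of letters shows no binding. Whether any of these sites bears on the RNA levels was not tested.

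The thick filament genes were read in every library and differed more between mice of the same genotype than between genotypes. Myh6, which encodes the fast alpha myosin heavy chain of the atria and of the adult mouse heart (ENSMUSG00000040752.16, chr14:54941921-54966927, minus strand), stood at 3.16 CPM in R/R replicate 1, 14.5 CPM in replicate 2 and 29.7 CPM in replicate 3, and in the WT lungs, numbered likewise, at 56.3, 98.3 and 1.76 CPM. WT replicate 2 was thus the highest of all 6 lungs and WT replicate 3 the lowest, 56.0-fold apart, and the R/R lungs lay between them. The mean was 15.8 ± 13.3 CPM in R/R and 52.1 ± 48.4 CPM in WT (SD, n = 3 each), and the log2 fold change of R/R over WT was -1.73 with a 95% interval from -3.61 to 0.14 (edgeR adjusted p = 0.398). In limma-voom the log2 fold change was -1.01.

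Myl7, the atrial regulatory light chain of myosin (ENSMUSG00000020469.8, chr11:5896637-5898782, minus strand), gave 1.94, 3.95 and 7.19 CPM in the R/R lungs in the same order and 11.5, 18.2 and 0.468 CPM in the WT lungs. The libraries fell into the same order as for Myh6, with WT replicate 3 the lowest on 8 counts. The 95% Poisson interval of these 8 counts was 0.202 to 0.923 CPM, against 16.3 to 20.3 CPM in WT replicate 2, so the gap between these WT lungs was far wider than counting error. Its log2 fold change was -1.22 with an interval from -2.81 to 0.38 (edgeR adjusted p = 0.505), and -0.34 in limma-voom.

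Myl4, the atrial essential light chain (ENSMUSG00000061086.12, chr11:104550663-104595753, plus strand), was at 4.33, 7.71 and 10.1 CPM in R/R and at 14.9, 29.4 and 5.15 CPM in WT. It spanned 6.80-fold, less than Myl7 or Myh6, and WT replicate 3 was here slightly above R/R replicate 1. Its log2 fold change was -1.17 with an interval from -2.20 to -0.14 (edgeR adjusted p = 0.277, unadjusted p = 0.0288).

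**Figure D1:**
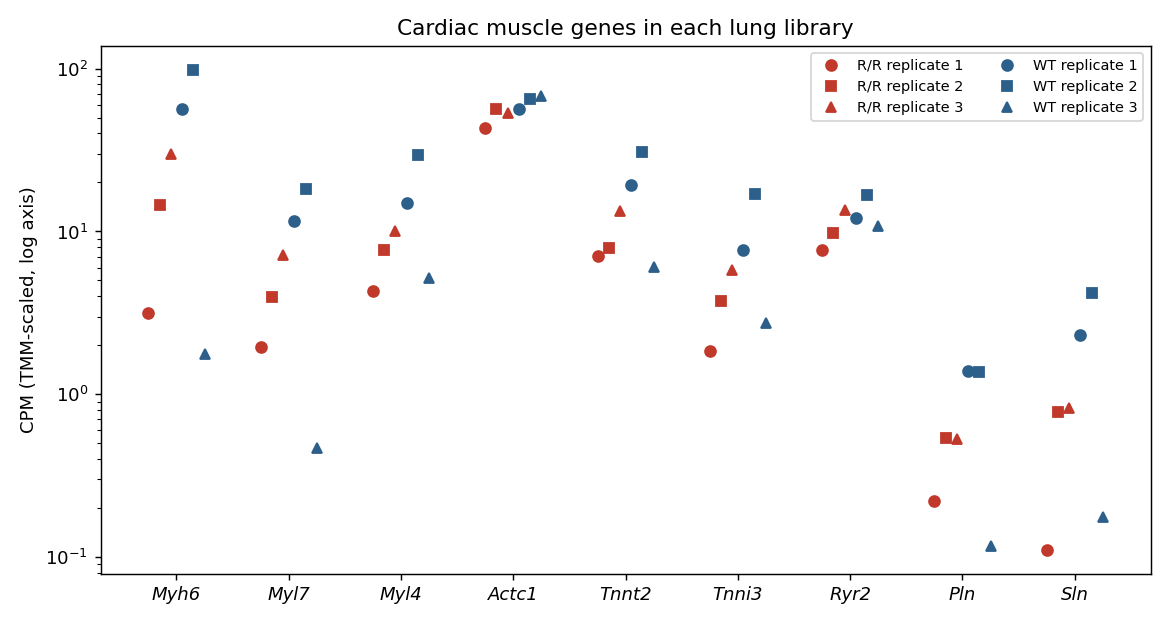
Level of 9 cardiac muscle genes in each lung library, in CPM on a log axis; red points are R/R and blue points WT, with circle, square and triangle for replicates 1, 2 and 3. WT replicate 2 is the highest or next to highest library of every gene drawn, and R/R replicate 1 or WT replicate 3 the lowest (Myh6 at 98.3 CPM in WT replicate 2 and 1.76 CPM in WT replicate 3), whereas the 6 values of Actc1 lie within 43.3 to 68.2 CPM; Nppa, with 0 or 1 count per library, is not drawn.

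In the thin filament, the troponins varied like the myosin genes and cardiac actin did not. Tnnt2, the cardiac troponin that ties the complex to tropomyosin (ENSMUSG00000026414.13, chr1:135836354-135852260, plus strand), was at 7.10, 7.95 and 13.3 CPM in R/R and at 19.3, 30.9 and 6.09 CPM in WT. Its lowest and highest values were both WT lungs, and its log2 fold change was -0.99 with an interval from -1.92 to -0.06 (edgeR adjusted p = 0.318, unadjusted p = 0.0386). Tnni3, the inhibitory troponin of heart muscle (ENSMUSG00000035458.15, chr7:4518305-4524229, minus strand), was at 1.83, 3.77 and 5.77 CPM in R/R and at 7.71, 17.1 and 2.75 CPM in WT. R/R replicate 1 was its lowest library and WT replicate 2 its highest, and its log2 fold change was -1.29 with an interval from -2.44 to -0.14 (edgeR adjusted p = 0.291, unadjusted p = 0.0316). Of its exonic length, 4.17% is shared with Dnaaf3.

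Actc1, the alpha actin of heart muscle (ENSMUSG00000068614.7, chr2:114047282-114053548, minus strand), was at 43.3, 56.6 and 53.5 CPM in R/R and at 56.3, 65.5 and 68.2 CPM in WT. Its highest library was WT replicate 3, the lung in which Myh6, Myl7 and Tnnt2 were lowest, and the genotypes overlapped only by R/R replicate 2 lying just above WT replicate 1. The mean was 51.1 ± 6.94 CPM in R/R and 63.3 ± 6.24 CPM in WT (SD, n = 3 each), a log2 fold change of -0.31 with an interval from -0.53 to -0.09 (edgeR adjusted p = 0.172, unadjusted p = 0.00994). Its span of 1.58-fold over the 6 lungs was exceeded by 30.0% of all tested genes, whereas the span of Myh6 ranked 8 and that of Myl7 17 among the 17120 tested genes. Actin genes are near-identical copies of each other, and a read pair that fits more than 1 of them went uncounted, so the level of Actc1 is uncertain.

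The calcium-cycling members divided in the same way. Ryr2, the calcium release channel of the sarcoplasmic reticulum (ENSMUSG00000021313.16, chr13:11553102-12106945, minus strand), was at 7.71, 9.80 and 13.5 CPM in R/R and at 12.0, 16.8 and 10.8 CPM in WT. These values lay within 2.17-fold of each other, and the log2 fold change was -0.35 with an interval from -0.81 to 0.10 (edgeR adjusted p = 0.495). Sln, the sarcolipin that inhibits the calcium pump in atrial muscle (ENSMUSG00000042045.6, chr9:53850164-53854560, plus strand), gave 2, 13 and 14 counts in R/R and 38, 76 and 3 counts in WT. In CPM these were 0.111, 0.777 and 0.825 in R/R and 2.31, 4.19 and 0.176 in WT, so that its lowest lungs were R/R replicate 1 and WT replicate 3, each at or under the limit of 3 counts. Its fitted log2 fold change was -1.98 with an interval from -3.72 to -0.23 (edgeR adjusted p = 0.281, unadjusted p = 0.0296).

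Pln and Nppa were too low to be tested. Pln, the phospholamban that restrains the same pump in heart muscle (ENSMUSG00000038583.13, chr10:53337667-53345987, plus strand), gave 4, 9 and 9 counts in R/R and 23, 25 and 2 in WT. The order of its libraries was again close to that of Myh6, although 59.6% of its exonic length is shared with Gm47644 on the opposite strand, and the counting did not tell the strands apart. Nppa, the atrial natriuretic peptide secreted by atrial cells (ENSMUSG00000041616.9, chr4:148000722-148002079, plus strand), gave 0, 1 and 0 counts in R/R and 0, 0 and 1 in WT. Every library was thus under the limit of 3 counts, no difference could be detected at this depth, and 61.5% of its exonic length is shared with Gm13054 on the opposite strand. Of the 4 atrial genes of the list, Myl7 and Myl4 were therefore read in all 6 lungs and Nppa was at or near 0. Sln had counts in all 6 lungs, but no more than 3 in R/R replicate 1 and WT replicate 3.

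No member was called between R/R and WT. Of the 8 tested members 0 passed an adjusted p of 0.05 in edgeR's quasi-likelihood test, against 1.75% of all 17120 tested genes, of which 1.1% were lower and 0.648% higher in R/R. At an unadjusted p under 0.05, 5 of the 8 were lower in R/R (Actc1, Myl4, Sln, Tnni3 and Tnnt2), against 7.68% of all tested genes, and both DESeq2 and limma-voom called 0 members with 1 at an unadjusted p under 0.05. All 8 fold changes were below 0, with a median log2 fold change of -1.20 against 0.00 over all tested genes, where 48.8% were below 0. The members varied together over the same lungs, so these 8 directions are not 8 separate observations. In none of the 8 did every R/R lung lie below every WT lung, a separation that 9.5% of all tested genes showed, nor the reverse, which 9.17% showed. Exact two-sided permutation tests of log2 CPM, which cannot go below 0.1 for 3 against 3, gave p = 0.2 for Actc1 and from 0.4 to 0.9 for the other tested members.

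The result turned on WT replicate 3. Without it, 6 of the 9 members then tested were called lower in R/R: Myh6 (log2 fold change -2.31, edgeR adjusted p = 0.0202), Myl7 (-1.78, 0.0152), Myl4 (-1.60, 0.0121), Tnnt2 (-1.42, 0.00738), Tnni3 (-1.73, 0.0235) and Sln (-2.52, 0.017). In that fit 2.06% of all 17444 tested genes were called lower, and 621 genes (3.56%) were called in either direction against 300 with all 6 libraries. For those 6 genes each R/R lung then lay below both remaining WT lungs, while Actc1 (-0.26, adjusted p = 0.253) and Ryr2 (-0.48, adjusted p = 0.268) still overlapped. Pln, which passed the filter in that fit, was not called (-1.69, adjusted p = 0.0646). Leaving out WT replicate 2 had the opposite effect: the fold change of Myh6 became -0.88, that of Myl7 -0.46 and that of Tnnt2 -0.43, with 0 members called. With any of the other 4 libraries left out 0 members were called. A fold change that depends this far on which WT lungs are counted is not larger than the spread between WT lungs, and nothing in the labels sets WT replicate 3 apart from the other WT mice.

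**Figure D2:**
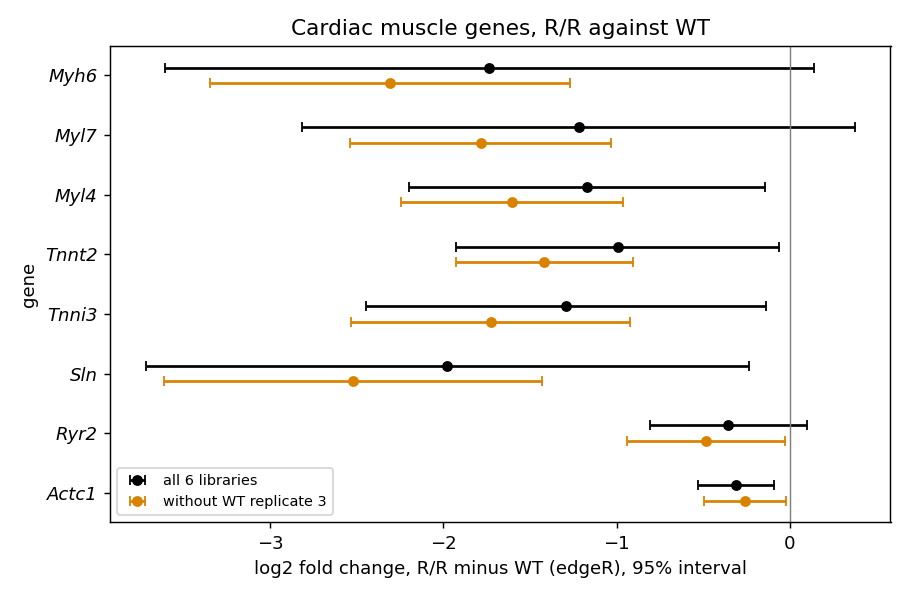
Log2 fold change of R/R over WT for the 8 tested members, in log2 units, from edgeR; points are estimates and bars 95% intervals, in black with all 6 libraries and in orange without WT replicate 3. All points lie below 0 in both fits, and leaving out WT replicate 3 narrows the interval of Myh6 and shifts its estimate from -1.73 to -2.31, whereas Actc1 moves only from -0.31 to -0.26.

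Over the 6 lungs the members rose and fell together, with Actc1 apart. For the 28 pairs of tested members the median Pearson r of log2 CPM was 0.891, and 16 pairs had an adjusted p under 0.05 in exact permutation tests over 720 pairings, adjusted over the 45 pairs of all 10 members. The closest pairs were Myl4 with Tnni3 (r = 0.994, exact permutation p = 0.00139, adjusted p = 0.0156, the smallest p that 720 pairings can give) and Myh6 with Myl7 (r = 0.975, exact permutation p = 0.00139, adjusted p = 0.0156). Among the 6 genes Myh6, Myl7, Myl4, Tnnt2, Tnni3 and Sln, a grouping made after the values were seen, r ran from 0.838 to 0.994 and Spearman's rho from 0.943 to 1. Without the 2 libraries farthest from the median of the first gene of each pair these r ran from 0.736 to 0.9998, and they ran from 0.910 to 0.993 after the genotype means were removed. Over all 28 pairs of tested members, r after this removal ran from -0.117 to 0.993, with a median of 0.918. The shared variation of these 6 genes was therefore present within the genotypes.

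Ryr2 followed this pattern less closely, with r from 0.647 (with Myl7) to 0.929 (with Tnni3, exact permutation p = 0.0139, adjusted p = 0.0395) against those 6 genes. Actc1 showed r from -0.02 (with Myl7) to 0.647 (with Ryr2), and 0 of its 7 pairs with tested members had an adjusted p under 0.05. These values of Actc1 depended on single libraries: with each left out in turn they ranged from -0.44 to 0.953.

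**Figure D3:**
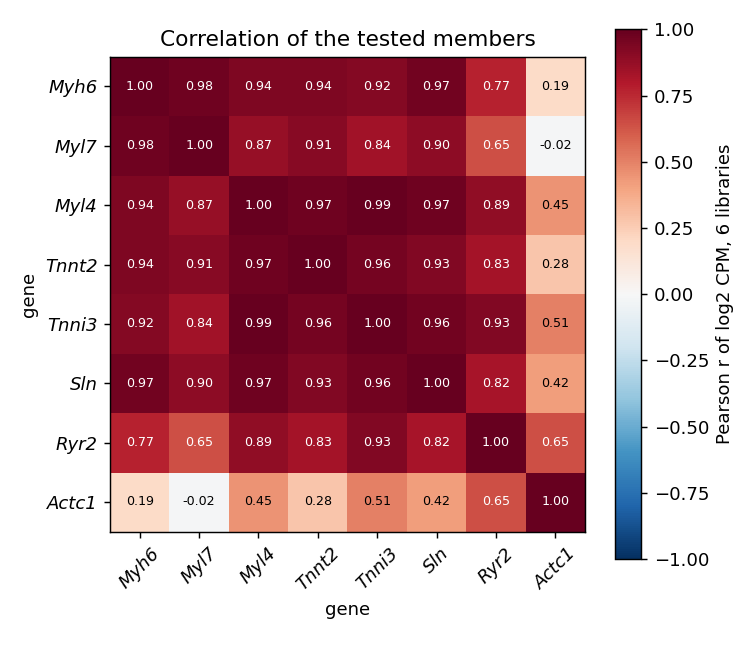
Pearson r of log2 CPM over the 6 libraries for each pair of the 8 tested members, with the value printed in each cell and colour from blue (-1) to red (1). The 6 genes from Myh6 to Sln are at 0.838 or above with each other, and the row of Actc1 is the palest, from -0.02 to 0.65.

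Levels per length show how the members stand to each other, in TPM (counts divided by the exonic lengths in the table and scaled to the same total in each library). Over the 6 lungs Actc1 was the highest at 119 ± 19.4 TPM, followed by Myl7 at 42.0 ± 39.7, Myh6 at 17.4 ± 19.5, Tnni3 at 10.8, Myl4 at 8.80, Tnnt2 at 6.22, Sln at 3.65, Ryr2 at 1.38, Pln at 0.865 and Nppa at 0.0748 TPM (mean ± SD, n = 6). Actc1 stood above Myl7 and Myl7 above Myh6 in every lung, with Myh6 at 0.143 to 0.473 of Myl7 by TPM, although the means of Myl7 and Myh6 do not differ beyond their spread over lungs; those of Tnni3, Myl4 and Tnnt2 do not either. In TPM, Actc1 was 1.31 times Myl7 in WT replicate 2, 8.13 times in R/R replicate 1 and 53.1 times in WT replicate 3. Myl4 stood at 0.165 to 0.284 of Myl7 in 5 lungs and at 1.40 of it in WT replicate 3, and Tnnt2 at 0.127 to 0.278 in the 5 and at 0.989 in WT replicate 3. The members did not fall in a fixed ratio: in the lung with the least Myh6 and Myl7, the levels of Myl4, Tnnt2, Tnni3 and Ryr2 remained higher relative to Myl7 than in any other lung.

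Added up, the 10 members took 69.7, 106 and 134 CPM in the R/R lungs and 182, 282 and 95.5 CPM in the WT lungs. The sums averaged 103 ± 32.4 CPM in R/R and 186 ± 93.2 CPM in WT (SD, n = 3 each), a log2 ratio of -0.85 that moved to -1.17 without WT replicate 3 and to -0.43 without WT replicate 2. Actc1 alone made up 71.4% of the sum in WT replicate 3, 62.1% in R/R replicate 1 and 23.3% in WT replicate 2. Without Actc1 the sums were 26.4, 49.0 and 81.0 CPM in R/R and 126, 216 and 27.3 CPM in WT, 8.19-fold from the lowest to the highest lung.

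A wider list of 90 further heart muscle genes showed how far the pattern reached. Of these, 68 were tested and 0 were called, against 1.75% of all tested genes; 19 had an unadjusted p under 0.05, against 14.2% of all tested genes, DESeq2 called 2 (Des lower, Myh7 higher) and limma-voom 0. The median log2 fold change was -0.24, with 54 below 0 and 14 above. By role, 22 of 25 tested sarcomere genes were below 0 (median -0.53), 8 of 11 for calcium cycling (-0.21), 9 of 11 ion channels and gap junction genes (-0.09), 7 of 9 transcription factors (-0.10) and 8 of 12 genes of energy supply (-0.15). Without WT replicate 3, 13 of 72 tested genes of the list were called, 12 of them lower, against 3.56% of all tested genes called and 2.06% called lower in that fit.

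The genes of that list with the highest levels per length, which other lung cells use too, varied by 1.09-fold to 1.78-fold over the 6 lungs. For calcium cycling these were S100a1, a calcium-binding protein, at 37.4 to 56.3 CPM (log2 fold change 0.22, edgeR adjusted p = 0.385), and Atp2a2, the pump that phospholamban and sarcolipin act on, at 283 to 331 CPM (-0.09, adjusted p = 0.591). For energy supply it was Ldhb, a lactate dehydrogenase subunit, at 84.0 to 123 CPM (0.28, adjusted p = 0.230, unadjusted p = 0.0186). Tpm1, the alpha tropomyosin, ranged from 322 to 351 CPM (-0.04, adjusted p = 0.821), Gja5, a gap junction protein of atria and arteries, from 64.3 to 75.3 CPM (0.07, adjusted p = 0.744) and Tbx5, a transcription factor of atria and lung, from 74.1 to 97.8 CPM (-0.12, adjusted p = 0.628). Des, the muscle intermediate filament desmin, was at 117, 129 and 116 CPM in R/R and at 146, 139 and 147 CPM in WT. It did not overlap between the genotypes, at a log2 fold change of -0.25 with an edgeR adjusted p of 0.0672.

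Other genes varied over the lungs as the members did. The 15 genes most like them, by Pearson r with the mean of the tested members' centred log2 CPM over the 6 lungs, were taken from 2741 tested genes that spanned at least 1 log2 unit, of which 37 (1.35%) had r above 0.9. Of the 15, 14 are reported here: Mb, Ckmt2, Myoz2, Spsb4, Csrp3, Zbtb8b, Ttn, Kif14, Cdkn3, Actn2, A430035B10Rik, Mypn, Hpcal4 and Mybphl, with r from 0.964 to 0.992. Of the 14, 8 stand on the wider heart muscle list and 6 (Spsb4, Zbtb8b, Kif14, Cdkn3, A430035B10Rik and Hpcal4) on none of the lists. Mb, which encodes the oxygen store myoglobin, was at 0.222, 0.897 and 2.18 CPM in R/R and at 2.49, 7.17 and 0.234 CPM in WT (r = 0.992), and 27.6% of its exonic length is shared with Gm49540 on the opposite strand. Csrp3, the muscle LIM protein, was at 0.111, 1.14 and 1.59 CPM in R/R and at 3.95, 6.57 and 0.0585 CPM in WT, with 1 count in WT replicate 3. Ttn, the giant spring protein titin, was at 6.33, 8.79 and 14.3 CPM in R/R and at 14.1, 24.0 and 6.38 CPM in WT. In all of these the highest library was WT replicate 2, as for Myh6, and the genes were chosen for this likeness.

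**Figure D4:**
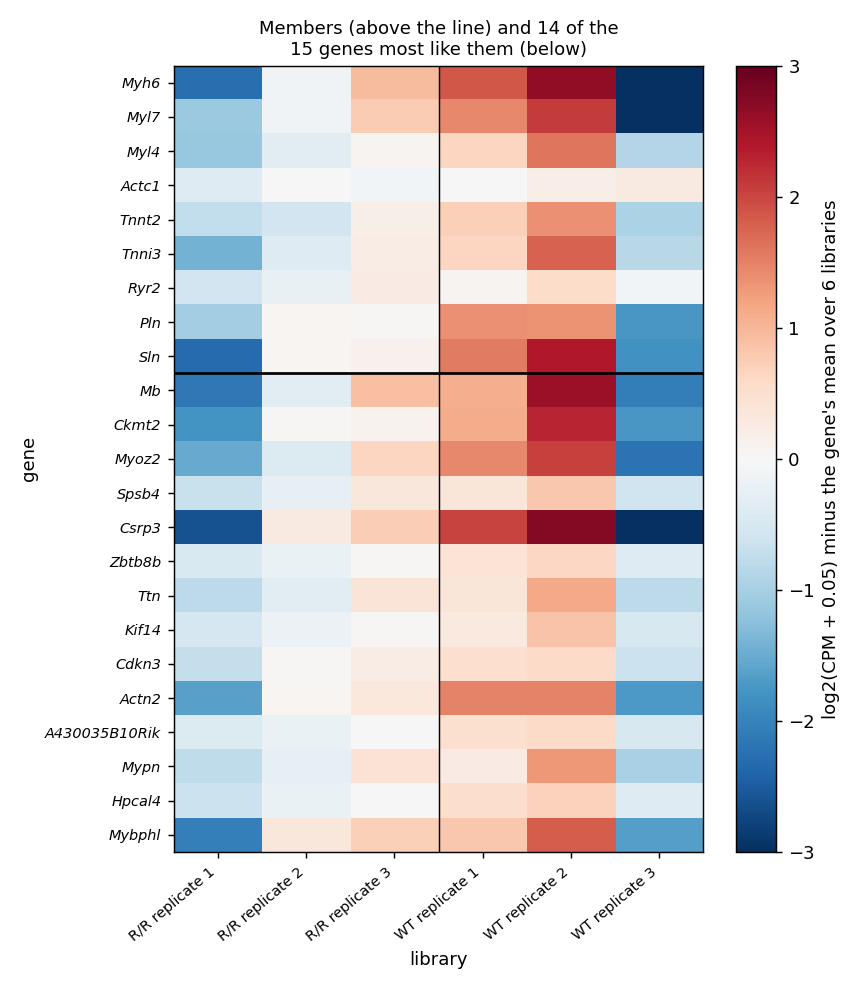
Log2(CPM + 0.05) of each gene minus its mean over the 6 libraries, in log2 units, for 9 members (above the line) and 14 of the 15 genes most like them (below); columns are libraries, R/R left and WT right of the vertical line, and colours stop at 3 and -3. WT replicate 2 is red and WT replicate 3 and R/R replicate 1 are blue in nearly every row, and Actc1 is pale throughout; the genes below the line were chosen for this likeness.

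Markers of the ventricle were mixed. Myl2, the ventricular regulatory light chain, was at 0.0552 to 0.12 CPM, and Nppb and Irx4 each gave 1 count in 1 library. Myl3, the light chain of ventricular and slow muscle, followed the members, at 0.166, 0.239 and 0.707 CPM in R/R and at 1.64, 3.97 and 0.176 CPM in WT. Myh7, the slow beta myosin heavy chain, did not: it was at 42.0, 27.3 and 37.1 CPM in R/R and at 22.5, 24.8 and 28.1 CPM in WT, a log2 fold change of 0.50 (edgeR adjusted p = 0.114). Myh7 lies beside Myh6 and resembles it closely, so pairs that fit both were not counted, and it shares 6.07% of its exonic length with Gm31251 and 5.62% with Mhrt on the opposite strand. Lbh, also on the ventricle list but used by other lung cells, was the 1 called gene among the 4 tested of that list, lower in R/R (-0.40, edgeR adjusted p = 0.0148). Of all tested genes 1.75% were called.

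The skeletal muscle markers were low. The 21 genes summed to 13.04 to 15.5 CPM in R/R and 14.2 to 17.2 CPM in WT, with 9 tested and 0 called, and Myh4, Myh8, Pvalb, Myog and Myod1 were at 0 in every library. Mylpf, the fast light chain and the highest of them per length, ranged from 1.41 to 2.28 CPM. Of the 9, 7 spanned at least 1 log2 unit, and the values of 2 of them are given, chosen after they were seen. Atp2a1, the calcium pump of fast muscle, was at 0.721, 1.67 and 1.77 CPM in R/R and at 2.004, 2.37 and 0.820 CPM in WT, and Tnnt1, the slow troponin, at 0.777, 1.02 and 1.12 CPM in R/R and at 1.52, 2.21 and 1.35 CPM in WT (log2 fold change -0.80, edgeR adjusted p = 0.274, unadjusted p = 0.0281). The part of skeletal muscle in the members' levels was not tested. For smooth muscle, 14 of 14 genes were tested and 1 was called (Hhip, higher in R/R at 0.41, edgeR adjusted p = 0.0169), against 1.75% of all tested genes. The 14 genes summed to 1564 to 1642 CPM in R/R and 1591 to 1779 CPM in WT. WT replicate 3, highest in Actc1, was also highest in Acta2, the actin of smooth muscle (226 CPM against 133 to 172 CPM elsewhere), and in Cnn1, calponin (60.4 CPM against 24.9 to 33.0 CPM). Myh11, Actg2, Lmod1, Myl9 and Tpm2 of the list were highest in that lung too. Tagln was lowest there (2.17 CPM), and Mylk, Smtn, Synpo2 and Kcnmb1 were highest in other lungs. The part of smooth muscle in the level of Actc1 was not tested.

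Red cell genes had fold changes of the same sign as the members. All 6 were tested and below 0 with an unadjusted p under 0.05, against 14.2% of all tested genes at that p in either direction, and 1 was called lower (Hba-a1, -0.78, adjusted p = 0.0478); the most abundant, Hbb-bs, had a log2 fold change of -0.62 (adjusted p = 0.115). Globin genes have near-identical copies, which makes their counts uncertain. They summed to 1175, 1720.05 and 2219 CPM in R/R and to 2626, 3219.9 and 2425 CPM in WT. WT replicate 2 was thus the highest and R/R replicate 1 the lowest, as for the sum of the members, but WT replicate 3 stood above every R/R lung. Of 6 mesothelial genes, 5 had fold changes above 0, 5 had an unadjusted edgeR p under 0.05 and 1 was called (Lrrn4, higher in R/R at 1.01, adjusted p = 0.0124). Krt19, the most abundant, was at 0.35 with an edgeR adjusted p of 0.0794. The 6 mesothelial genes summed to 271 to 360 CPM in R/R and to 236 to 287 CPM in WT. Of 12 lung epithelial and endothelial genes, 8 had fold changes above 0, 6 had an unadjusted edgeR p under 0.05 and 1 was called (Aqp5, higher at 0.27, adjusted p = 0.0459), with Scgb1a1 the most abundant. Over all tested genes 14.2% had an unadjusted p under 0.05 and 1.75% were called. Adipose genes, with Cidec the most abundant and 2 tested and 0 called, summed to 17.7, 17.8 and 27.7 CPM in R/R and 9.29, 11.8 and 27.8 CPM in WT; cartilage, thymus and squamous epithelium, led by Chad, Cd8b1 and Krt13, had 1, 1 and 0 tested genes and 0 called. The part of the blood, mesothelium and adipose content of each piece of lung in the members' levels was not tested.

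**Figure D5:**
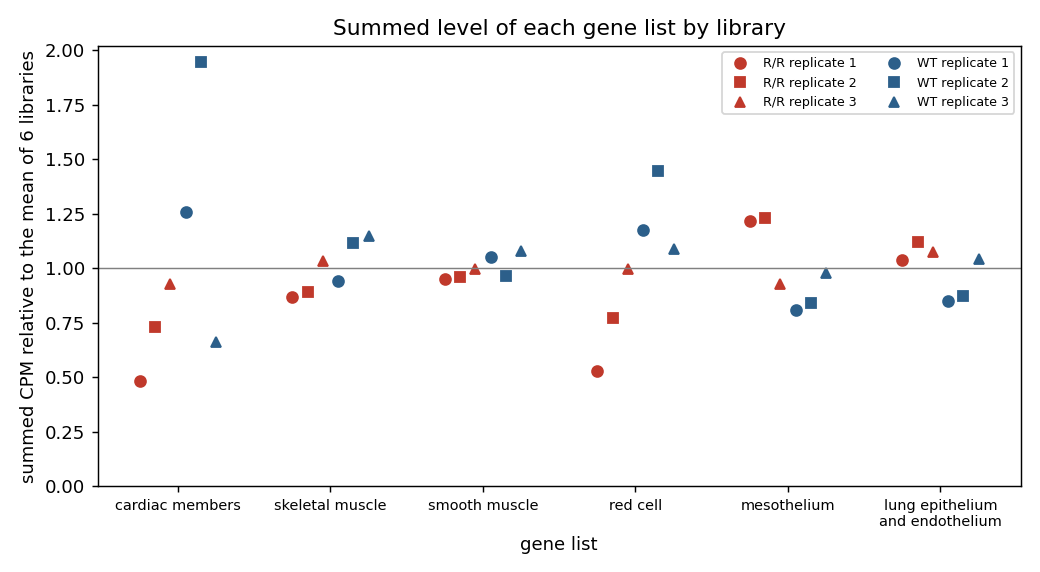
Summed CPM of each gene list in each library, divided by the mean of the 6 libraries; red points are R/R and blue points WT, with circle, square and triangle for replicates 1, 2 and 3. Of the lists drawn the cardiac members spread the most, from WT replicate 2 (282 CPM) to R/R replicate 1 (69.7 CPM), while the skeletal and smooth muscle lists stay close to 1.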

How the data were processed

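Lung RNA-seq of 3 R/R and 3 WT mice was used, with groups and replicate numbers from the labels. The supplement states that the mice were littermates with 3 biological replicates each. Per the authors' notes and command line, HISAT2 2.1.0 placed the reads on mm10 (GRCm38), and featureCounts 2.0.1 counted pairs on GENCODE M25 genes; the deposited counts are raw. Counting ignored strand and left out pairs that map to several places or genes. One deposited column is recorded as an estimated count only because a check misread the table's comment line; its values are whole reads, like the others, and were not rounded. DESeq2 is also named in the submitters' notes.

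Symbols came from GENCODE M21 by identifier (55141 of 56262 matched), positions and exon overlaps from the annotation deposited with the counts, and promoters from RefSeq on GRCm38.p6. Genes were filtered with filterByExpr (minimum count 10, minimum total 15), scaled by TMM and tested with glmQLFit and glmQLFTest (R 4.3.3, edgeR 4.0.16), with Benjamini-Hochberg adjustment over all tested genes and a threshold of 0.05. The test was checked on counts simulated with the same spread for every gene. That spread was narrower than that of every tested member but Actc1, so the check does not cover theirs. CPM are TMM-scaled, with a prior count of 0.5 on the log2 scale. Poisson intervals are exact, at 95%, and like the limit of 3 counts cover counting error only. Correlations used all 6 libraries. Alternatives were DESeq2 1.42.0, limma-voom (limma 3.58.1), other scalings and filters, the replicate number as a block, a threshold of 0.1 and each library left out.

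The members and lists were chosen with earlier results of these data known. Named are all members, called genes of the lists, some of the wider list's most abundant genes by role (at most 3 each) and each marker list's most abundant gene, and the 15 genes most like the members, of which 1 is not reported here; Myh7, Myl2, Myl3, Nppb, Irx4, Cnn1, Atp2a1 and Tnnt1 were chosen after their values were seen.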

Additional observations from a re-analysis of the deposited data

How the results depend on the processing

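All 8 members kept a fold change below 0 in every alternative in which they were tested. Without a filter beyond 1 count in total, 7 members, 1109 of all genes, 24 of the wider heart muscle list and 24 of the marker genes were called, against 0, 300, 0 and 5. In that fit 31428 genes were tested, edgeR's prior degrees of freedom became infinite, so that each gene took the spread of the trend, and the standard error of Myh6 fell from 0.857 to 0.0952. Under limma-voom the log2 fold change of Myl7 shrank from -1.22 to -0.34 and that of Myh6 from -1.73 to -1.01; the cause was not tested. DESeq2 called 529 of all genes, 2 of the wider list and 8 markers, and a threshold of 0.1 gave 548 and 1 for the first 2 of these. Same-numbered R/R and WT mice were not alike over the tested genes (r of same-numbered deviations from -0.015 to -0.0036). With 3 mice a genotype, this cannot exclude that the numbers pair the mice. With the replicate number as a block 1 member (Actc1, edgeR adjusted p = 0.0364), 446 of all genes and 9 markers were called. Leaving out each library in turn gave 0 to 6 members, 65 to 621 of all genes, 0 to 13 of the wider list and 0 to 13 markers, each highest without WT replicate 3. Alternatives for the markers were added after seeing the data. The log2 ratio of the summed members ranged from -1.17 to -0.43 and the median r from 0.85 to 0.956 with single libraries left out. Pln and Nppa stood too low for a test, and 3 mice a genotype leave wide intervals.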
